A study of Homo sapiens with 6 samples.

Results

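The syndecans (SDC1, SDC2, SDC3 and SDC4) and the glypicans (GPC1, GPC2, GPC3, GPC4, GPC5 and GPC6) are the families of heparan sulfate proteoglycans that cells carry on their surface. The genes were taken by symbol from the table of read counts per gene, where all 10 were found among 60623 genes. RNA-Seq had been performed in TC28a2 cells, a line of immortalized human chondrocytes, which were treated for 24 hours with 2 μM mocetinostat or with DMSO, its solvent, in 3 samples per condition from separate experiments. Mocetinostat is an inhibitor of class I histone deacetylases, enzymes that remove acetyl groups from histones. The study asked which genes the compound regulates in chondrocytes. All 6 samples come from 1 immortalized line in culture.

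A syndecan is a transmembrane protein that carries heparan sulfate chains near its outer end and a short tail inside the cell, which binds PDZ proteins and links the receptor to the cytoskeleton. A glypican is held in the outer leaflet of the membrane by a glycosylphosphatidylinositol (GPI) anchor and has no cytoplasmic tail. The sulfated chains of both bind growth factors, morphogens, chemokines and matrix proteins, and so present them to their receptors, store them or limit their spread. In cartilage, heparan sulfate is known to shape the ranges of hedgehog, bone morphogenetic protein, Wnt and fibroblast growth factor signals, and syndecan-4 is known for its links to fibronectin adhesion and to aggrecan breakdown. Both kinds of core protein can be released from the surface, syndecans mostly by proteases and glypicans by proteases or by lipases that cut the anchor.

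The promoters of 4 genes are shown. SDC4 and GPC1 are the most abundant members of their families, and GPC4 had the largest fold change of the 9 genes tested. GPC6 is the only gene with a window used here that lacks a GC box. The sequences were not compared with the expression results. Each window holds 300 bases, from 250 before to 50 after the annotated start, and comes from RefSeq on GRCh38.p14, read along the strand of the gene. Capitals mark every GGGCGG on either strand, the GC box that factors of the SP and KLF kind bind (on the opposite strand it reads CCGCCC). The windows lie at chr20:45348375-45348674 on the minus strand for SDC4, chr2:240435413-240435712 on the plus strand for GPC1, chrX:133415440-133415739 on the minus strand for GPC4 and chr13:93226557-93226856 on the plus strand for GPC6.
SDC4: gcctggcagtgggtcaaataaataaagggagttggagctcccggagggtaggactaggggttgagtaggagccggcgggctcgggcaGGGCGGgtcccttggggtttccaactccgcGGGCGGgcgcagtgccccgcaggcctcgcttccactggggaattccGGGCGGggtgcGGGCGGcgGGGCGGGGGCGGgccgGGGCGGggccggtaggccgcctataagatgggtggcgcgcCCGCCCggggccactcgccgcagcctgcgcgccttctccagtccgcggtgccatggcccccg
GPC1: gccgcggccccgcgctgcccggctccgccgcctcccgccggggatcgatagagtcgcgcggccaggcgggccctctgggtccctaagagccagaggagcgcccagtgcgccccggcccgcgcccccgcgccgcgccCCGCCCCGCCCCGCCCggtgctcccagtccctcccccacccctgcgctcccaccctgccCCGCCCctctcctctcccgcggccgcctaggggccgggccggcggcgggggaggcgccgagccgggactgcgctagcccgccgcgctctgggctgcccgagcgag
GPC4: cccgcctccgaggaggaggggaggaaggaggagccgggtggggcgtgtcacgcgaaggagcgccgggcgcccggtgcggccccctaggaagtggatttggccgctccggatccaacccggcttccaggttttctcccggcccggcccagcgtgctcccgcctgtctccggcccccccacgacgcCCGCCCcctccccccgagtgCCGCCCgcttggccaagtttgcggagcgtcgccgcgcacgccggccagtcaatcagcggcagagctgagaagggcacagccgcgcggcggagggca
GPC6: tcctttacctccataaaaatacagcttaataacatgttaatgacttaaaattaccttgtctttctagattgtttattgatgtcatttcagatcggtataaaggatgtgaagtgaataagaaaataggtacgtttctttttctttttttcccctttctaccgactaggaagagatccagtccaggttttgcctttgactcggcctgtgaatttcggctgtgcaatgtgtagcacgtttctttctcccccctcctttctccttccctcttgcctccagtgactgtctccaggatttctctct

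Windows were used for 8 of the 10 genes, 9 windows in all since SDC1 had 2. Chromosome 8, where SDC2 lies, was left out of the search, and GPC3 had no window. The GC box was found 8 times in the SDC4 window, 6 times for SDC3, 4 times for GPC1, 3 times each for GPC2 and GPC5, 2 times for GPC4 and 1 time in each window of SDC1. Of all 35116 promoter windows of the same length, 45.0% held it. Some of these matches shared bases: in GPC1 2 of them ran into the next, and in SDC3 1 did. The shorter CACCC, searched on both strands as a KLF-type element, was found in the windows of all 8 genes but GPC6 and in 59.9% of all windows. In SDC4 it shared 1 base with a GC box. TATAAA was found 1 time each in GPC5 and GPC6 (11.5% of all windows), and CCAAT was found only in GPC2, 2 times (34.6%). TGACTCA and TGACGTCA, present in 4.9% and 1.8% of all windows, were in none of the 9. The GPC6 window stood apart in composition, with 40.0% G+C and 6 CpG dinucleotides, against a range of 65.0% to 84.0% and 23 to 46 CpG for the other 8 windows and medians of 58.7% and 14 over all windows. A match of letters is a description of the sequence and not a site of binding.

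A gene was tested when enough samples held about 10 counts or more (2.01 CPM, the counts of a gene scaled to a common library size), which left 13966 genes. Mocetinostat was compared with DMSO by the quasi-likelihood test of edgeR. All adjusted p-values below are from this test and were adjusted over all of these genes (Benjamini-Hochberg). A gene passed the test at an adjusted p under 0.05, and was called upregulated or downregulated when its log2 fold change was also over 1 in size, the thresholds of the study. Of the 10 proteoglycan genes, 9 were tested and 5 were called upregulated (SDC3, SDC4, GPC2, GPC4 and GPC5), beside 20.2% of all genes tested. Downregulated were 0 of the 9, beside 8.18% of all genes tested, with 1 gene lower at an unadjusted p under 0.05 and 0 called by DESeq2. By the adjusted p alone, 7 were higher and 1 was lower, where 32.9% and 31.4% of all genes were. The median log2 fold change of the 9 was 1.31, and that of all genes tested was 0.0, with a 25th percentile of -0.51 and a 75th of 0.74. GPC4 and GPC5 passed the filter only through the mocetinostat samples, so that a difference was built into their inclusion, and the counts and the median above hold that choice. The other 7 reached the filter level in every DMSO sample, and 3 of them were called upregulated, with a median of 0.81. Over all genes, 1030 reached the level in no DMSO sample, and without these 14.0% were called upregulated, 8.83% were called downregulated and the median was -0.08.

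In bulk RNA, fewer cells of a kind and less RNA per cell cannot be told apart, and the total RNA per cell was not measured. Total counts were between 4873426 and 11031132 in the DMSO samples and between 1619344 and 5089542 in the mocetinostat samples, and the 2 shallowest libraries were both of mocetinostat. Of 11 chondrocyte markers, 5 had a mean of at least 1 CPM in DMSO and 11 had it with mocetinostat, with summed levels of 115.4 to 138.5 CPM and 253.2 to 298.0 CPM; in DMSO, COL2A1 was at 1.46 to 2.80 CPM and ACAN at 3.96 to 5.31 CPM, while SOX9 was at 95.5 to 121.6 CPM. Fibroblast markers summed to 4610.9 to 5551.9 CPM and 4073.0 to 4445.8 CPM (5 and 6 of 6 at 1 CPM or more). Most of these sums was COL1A1 (means of 4544.0 and 3931.8 CPM, log2 fold change -0.21), and the other markers moved in both directions. COL3A1 (-1.35) and PDGFRB (-1.01) were called downregulated, COL1A2 (1.73) and LUM (2.71) were called upregulated, and DCN was too low to be tested. Both epithelial markers, EPCAM and CDH1, were under 1 CPM in DMSO and summed to 21.1 to 33.5 CPM with mocetinostat, and the endothelial markers PECAM1 and CDH5 summed to 3.39 to 5.83 CPM and 7.44 to 9.53 CPM. None of 3 haematopoietic markers had a mean of 1 CPM in either condition, and CD3E was at 0 in all 6 samples. The part of these shifts in the results below was not tested.

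SDC4, the widely expressed syndecan of focal adhesions, was the most abundant of the 10 genes. Its levels were 294.6, 268.0 and 273.5 CPM in the DMSO samples and 668.3, 728.8 and 686.3 CPM in the mocetinostat samples. Every mocetinostat sample was well above every DMSO sample, and the spread within each condition was small beside the gap. From a mean of 278.7 ± 14.0 CPM it rose to 694.5 ± 31.1 CPM (SD, n = 3 each), with a log2 fold change of 1.31 (SE 0.07, 95% interval 1.16 to 1.46, adjusted p = 7.62e-26). The gene, ENSG00000124145, lies on the minus strand at chr20:45325288-45348424 of GRCh38.

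SDC3 (ENSG00000162512, minus strand at chr1:30869466-30908758), a syndecan with a long extracellular domain that is best known from neurons and is also found in cartilage, had the largest fold change of the 4 syndecans. The DMSO samples held 38.7, 38.7 and 38.6 CPM and the mocetinostat samples 153.2, 138.2 and 124.7 CPM. The DMSO values lay almost on one another, the mocetinostat values were more spread out, and the groups did not overlap. The fold was 3.61 (log2 fold change 1.85, SE 0.11, 95% interval 1.62 to 2.08, adjusted p = 8.01e-24).

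SDC2 (ENSG00000169439, plus strand at chr8:96493813-96611790), the syndecan typical of mesenchymal cells, was at 70.0, 71.0 and 71.5 CPM in DMSO and at 122.3, 128.9 and 122.3 CPM with mocetinostat. It was higher in all 3 mocetinostat samples, with little spread in either condition. The log2 fold change of 0.81 (SE 0.11, 95% interval 0.60 to 1.02, adjusted p = 4.5e-10) passed the test but stayed under the fold threshold, and the upper end of its interval lay just past it.

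SDC1 (ENSG00000115884, minus strand at chr2:20200797-20225433), the syndecan of epithelia and plasma cells, was the only one of the 9 tested genes that did not pass. It measured 110.9, 127.2 and 124.1 CPM in DMSO and 130.3, 135.1 and 122.3 CPM with mocetinostat, and the lowest mocetinostat sample lay below the highest DMSO sample. The log2 fold change was 0.10 (SE 0.10, adjusted p = 0.388), and its 95% interval of -0.10 to 0.30 did not reach the fold of any other syndecan.

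**Figure D1:**
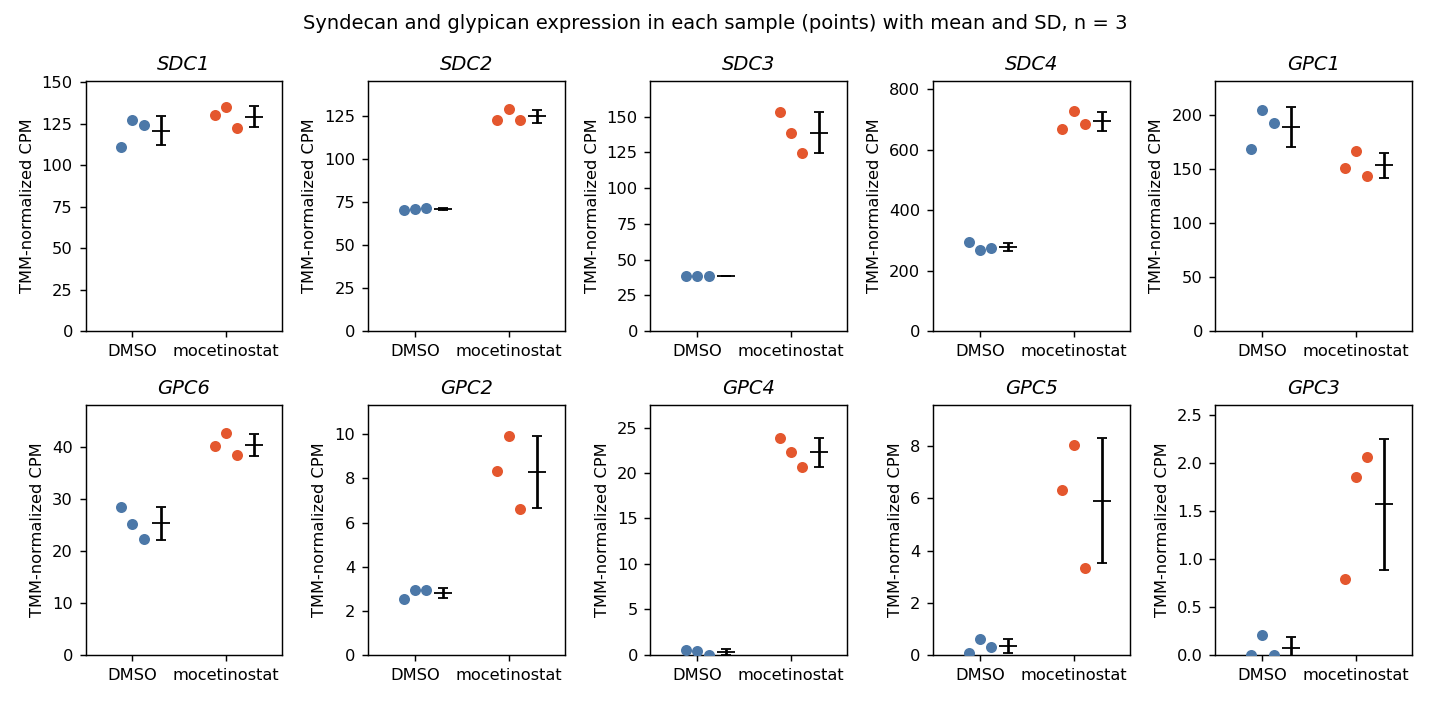
Level of each syndecan and glypican in each of the 6 samples, in TMM-normalized CPM on linear axes that start at 0 and have a scale of their own for each gene, with 1 point per sample and the mean ± SD of each condition beside the points (n = 3). SDC4 has the highest values in both conditions, the SDC1 points of both conditions overlap, and GPC4 goes from under 1 CPM in DMSO to 20.7 to 23.8 CPM with mocetinostat.

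GPC1 (ENSG00000063660, plus strand at chr2:240435663-240468076), the broadly expressed glypican and the most abundant of the 6 here, differed in the other direction. Its levels were 168.4, 204.9 and 192.0 CPM in DMSO and 151.3, 166.1 and 143.0 CPM with mocetinostat. All 3 mocetinostat samples were lower, although the highest of them came within a few CPM of the lowest DMSO sample. The log2 fold change was -0.30 (SE 0.09, 95% interval -0.48 to -0.11, adjusted p = 0.00395) and turned to 0.23 (adjusted p = 0.0489) when samples were scaled to GAPDH in place of TMM. GAPDH itself fell by 0.53 on the log2 scale, and that scaling moved the median of all genes by 0.54.

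GPC4, known as a Wnt and fibroblast growth factor co-receptor, had the largest fold change of all 9. GPC4 (ENSG00000076716, minus strand at chrX:133300103-133415489) was covered by 6, 2 and 0 counts in the DMSO samples and by 120, 36 and 50 counts in the mocetinostat samples. In CPM these were 0.543, 0.416 and 0 against 23.8, 22.3 and 20.7 with no overlap, and 1 DMSO sample held no read of the gene. The log2 fold change was 5.91 (SE 0.41, 95% interval 5.09 to 6.73, adjusted p = 3.04e-21). Because DMSO held few reads, the sums of 8 and 206 counts were also compared directly after normalization, which gave a ratio of 64.3 (95% exact interval 32.0 to 150.9, counting error only). The fold rests on those few reads: the log2 fold change was 6.77 without DMSO replicate 1 and 5.38 without DMSO replicate 3.

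GPC6 (ENSG00000183098, plus strand at chr13:93226807-94408020), which takes part in hedgehog signaling in growing bone, was at 28.5, 25.2 and 22.3 CPM in DMSO and at 40.2, 42.8 and 38.5 CPM with mocetinostat. The groups did not overlap. The log2 fold change of 0.66 (SE 0.16, 95% interval 0.35 to 0.98, adjusted p = 0.000179) passed the test without reaching the fold threshold. A noncoding gene on the opposite strand (ENSG00000278177) covers 511 bases, 7.18%, of its exons and held at most 5 counts in a sample. For the other 9 genes no exon was shared with another gene, and whether the counting used strand is not given in the sources used here.

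GPC5 (ENSG00000179399, plus strand at chr13:91398621-92873682), a glypican that binds hedgehog proteins, was covered by 1, 3 and 2 counts in DMSO and by 32, 13 and 8 counts with mocetinostat. All 3 DMSO samples were at the limit of what the depth can measure (3 counts per sample or fewer), and all 3 mocetinostat samples were above it. The ratio of the normalized sums, 6 and 53 counts, was 22.0 (95% exact interval 9.49 to 62.8), and the fitted log2 fold change, which with so few counts depends on the prior count of the fit, was 4.30 (SE 0.63, adjusted p = 9.78e-09). It was 3.63 without DMSO replicate 1 and 4.88 without DMSO replicate 2.

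GPC2 (ENSG00000213420, minus strand at chr7:100169606-100177381), a glypican of the developing nervous system, held 28, 14 and 20 counts in DMSO and 42, 16 and 16 counts with mocetinostat, or 2.53, 2.92 and 2.95 CPM against 8.33, 9.92 and 6.63 CPM. The counts overlap and the CPM do not, since the total counts of the samples differ. Its log2 fold change was 1.56 (SE 0.37, 95% interval 0.81 to 2.30, adjusted p = 0.000202). A test against a fold of 2 (glmTreat) gave an adjusted p of 0.101.

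GPC3 (ENSG00000147257, minus strand at chrX:133535745-133987100), a glypican that restrains hedgehog signaling and body growth, was too low to be tested, with 0, 1 and 0 counts in DMSO and 4, 3 and 5 counts with mocetinostat. Both conditions were near the limit of detection, and each mocetinostat sample held more reads than any DMSO sample. The sums of 1 and 12 counts gave a normalized ratio of 30.0 (95% exact interval 4.43 to 1280.4), an interval too wide to set its fold beside those of GPC4 and GPC5. When no filter was applied, edgeR gave a log2 fold change of 4.17 (SE 1.46, adjusted p = 0.0200).

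**Figure D2:**
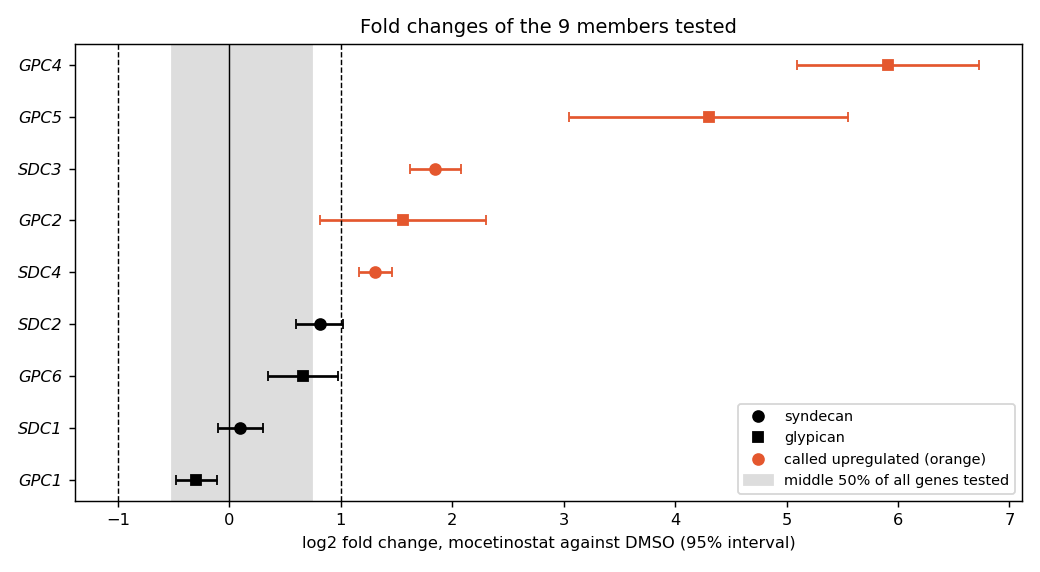
Log2 fold change of mocetinostat over DMSO for the 9 genes tested, as points with 95% intervals, in orange where the gene was called upregulated; circles are syndecans and squares glypicans. The grey band is the middle 50% of all 13966 genes tested and dashed lines mark the fold threshold of 1. The intervals of GPC4 and GPC5 lie farthest to the right, SDC1 crosses 0, and GPC1 lies below 0 with TMM scaling (0.23 when scaled to GAPDH).

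Over the 9 genes tested, all 3 mocetinostat samples were above all 3 DMSO samples for 7, below them for 1 and overlapping for 1. Among all genes tested the first held for 33.7% and the second for 32.8%. With 3 samples against 3, an exact permutation test of a single gene cannot give a two-sided p under 0.1, so that the single calls rest on the fit across all genes. The 4 syndecans had a median log2 fold change of 1.06 with 2 called upregulated. The 5 glypicans tested had a median of 1.56 with 3 called, a figure set in part by the inclusion of GPC4 and GPC5, and without these the other 3 had a median of 0.66 with 1 called.

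Levels were ranked between genes per kilobase of exon. In DMSO the order was SDC4 (106.7 CPM per kilobase), SDC1 (33.4), GPC1 (28.9), SDC2 (17.3), SDC3 (5.48), GPC6 (3.56), GPC2 (0.729), GPC5 (0.0954), GPC4 (0.0645) and GPC3 (0.0212). Of these neighbours, SDC1 and GPC1 did not differ beyond their spread, nor did GPC5 from GPC4 or GPC4 from GPC3. With mocetinostat SDC4 stood at 265.8 CPM per kilobase, followed by SDC1 (35.8), SDC2 (30.5), GPC1 (23.5), SDC3 (19.6), GPC6 (5.69), GPC4 (4.49), GPC2 (2.16), GPC5 (1.67) and GPC3 (0.480). There GPC2 and GPC5 did not separate. The first and last places were the same in both conditions, while GPC4 moved from rank 9 to rank 7 and SDC2 passed GPC1. Among all genes tested, the level per kilobase of SDC4 was at percentile 99.4 with mocetinostat, while SDC3 went from 51.6 to 85.4, and GPC4 from 3.25 to 45.2.

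Summed over the family, the 4 syndecans gave 514.2, 505.0 and 507.7 CPM in DMSO and 1074.1, 1131.0 and 1055.6 CPM with mocetinostat. The sum was 2.14 times as high (log2 ratio 1.09) and the samples did not overlap. Of the mean difference, SDC4 contributed 415.8 CPM, SDC2 53.7 CPM and SDC1 8.46 CPM, and SDC3 the rest. The 6 glypicans gave 200.1, 234.3 and 217.5 CPM in DMSO and 230.8, 251.0 and 214.3 CPM with mocetinostat, and these ranges overlapped (means of 217.3 ± 17.1 and 232.0 ± 18.4, SD, n = 3). The sum of the glypicans held a lower GPC1 (a mean difference of -35.0 CPM) together with a higher sum of the other 5, which went from 28.8 to 78.6 CPM. With GAPDH scaling the log2 ratio of the glypican sum was 0.62 in place of 0.09. These sums were of CPM not divided by exon length, and they were described and not tested.

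Shares within a family do not depend on the scaling of the samples. By level per kilobase, GPC1 made up 84.3%, 87.2% and 88.1% of the glypicans in the DMSO samples and 61.3%, 61.5% and 63.0% in the mocetinostat samples, a difference of -24.6 percentage points between the means. The share left by GPC1 was taken by each of the other 5, with GPC4 going from a mean of 0.197% to 11.8%, GPC6 from 10.7% to 15.0%, GPC2 from 2.19% to 5.65%, GPC5 from 0.275% to 4.32% and GPC3 from 0.0587% to 1.27%. Among the syndecans SDC4 made up 67.9%, 63.8% and 64.6% in DMSO and 74.5%, 75.9% and 76.3% with mocetinostat, and SDC3 went from 3.36% to 5.59%. SDC1 went from 20.5% to 10.2%, and SDC2, although its own level was higher, from 10.7% to 8.67%. The ratio of SDC4 to SDC1 per kilobase was 3.67, 2.91 and 3.05 in DMSO and 7.09, 7.46 and 7.76 with mocetinostat. Glypicans made up 15.6%, 18.3% and 17.1% of all 10 genes per kilobase in DMSO and 9.93%, 10.1% and 9.19% with mocetinostat. In each of these the conditions did not overlap.

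**Figure D3:**
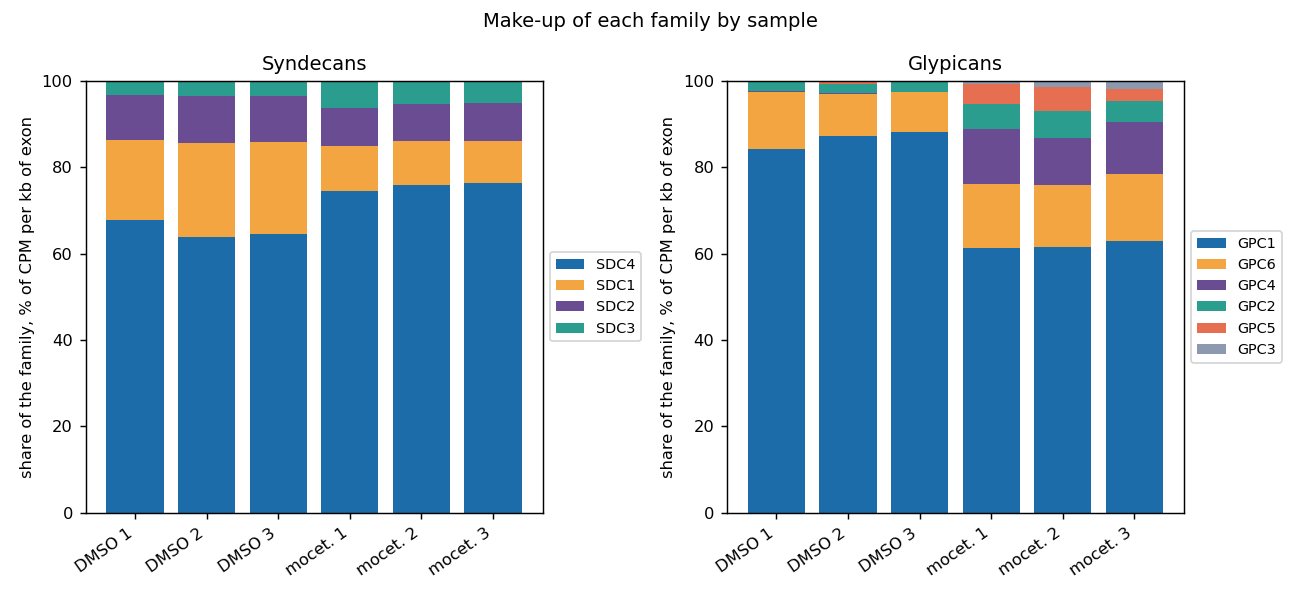
Share of each gene in the summed level per kilobase of its family, in percent, for each of the 6 samples as stacked bars. SDC4 takes more of the syndecans with mocetinostat (75.6% against 65.5% on average), and GPC1 takes less of the glypicans (61.9% against 86.5%).

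Neighbouring genes on the chromosomes were set side by side. GPC4 and GPC3 lie 120.3 kb apart on the same strand of the X chromosome, and GPC5 and GPC6 lie 353.1 kb apart on the same strand of chromosome 13. In the first pair both genes were near 0 in DMSO and had reads in all mocetinostat samples. In the second pair GPC5 was near 0 in DMSO and GPC6 was not. Each syndecan has a matrilin gene, which encodes a filament protein of the cartilage matrix, on the same strand at a distance of 16.8 kb (SDC4 and MATN4), 145.9 kb (SDC3 and MATN1), 188.1 kb (SDC1 and MATN3) or 1257.0 kb (SDC2 and MATN2). MATN3 rose from 1.92 to 4.79 CPM in DMSO to at least 9.12 CPM in every mocetinostat sample (log2 fold change 1.59, SE 0.34, adjusted p = 3.67e-05), beside SDC1, which did not pass the test. MATN2 was at 31.1 and 39.4 CPM (0.31, adjusted p = 0.0772), and MATN1 and MATN4 were too low to be tested. The antisense genes GPC3-AS1, GPC5-AS2 and GPC6-AS1 were at 0 in all 6 samples, and GPC5-AS1 and GPC6-AS2 held 1 count each.

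Heparan sulfate itself is built on the core proteins by enzymes of the Golgi. The counts in the lists below stand beside the shares of all genes tested: 20.2% called upregulated and 8.18% called downregulated, and 32.9% higher and 31.4% lower by the adjusted p. Of 11 listed genes of chain assembly 10 were tested, of which 4 were higher and 1 lower at an adjusted p under 0.05 (median log2 fold change 0.23). XYLT1, a xylosyltransferase that starts the chain, was at 1.68 CPM in DMSO and 32.6 CPM with mocetinostat (4.21, SE 0.27, adjusted p = 1.19e-22). Like GPC4 it reached the filter level only in the mocetinostat samples, and it was the 1 gene of the list that was called upregulated. FAM20B, a kinase that phosphorylates the xylose, fell from 77.8 to 53.0 CPM (-0.56, SE 0.13, adjusted p = 8.26e-05). The polymerase subunit EXT1 went from 346.0 to 531.3 CPM, a log2 fold change of 0.62, while that of its partner EXT2 was 0.05.

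Of 20 listed genes that modify or trim the chains 11 were tested, with 6 higher and 2 lower, 5 called upregulated and 1 called downregulated, the latter a share near that of all genes (median 0.46). Among these HS3ST6 and HS6ST3, sulfotransferases, reached the filter level only with mocetinostat, and the median without them was 0.05. HPSE, the heparanase that cuts the chains, rose from 3.39 to 46.9 CPM (3.71, SE 0.22, adjusted p = 9.62e-25). NDST1, an N-deacetylase and N-sulfotransferase that opens the chain to further sulfation, fell from 188.5 to 77.2 CPM (-1.28, SE 0.10, adjusted p = 2.84e-18).

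Of 12 genes listed under release from the surface 11 were tested, with 7 higher and 1 lower (median 0.63). The median was 0.52 without PCSK5 and NOTUM, which reached the filter level only with mocetinostat. The list also holds the proprotein convertases FURIN, PCSK5, PCSK6 and PCSK7, which process precursor proteins and do not by themselves release core proteins. PCSK5 had 0, 0 and 1.18 CPM in DMSO and a mean of 15.0 CPM with mocetinostat. ADAM17, a sheddase of syndecans, rose from 64.6 to 132.7 CPM (1.04, SE 0.11). MMP14, a membrane protease that also sheds them, fell from 102.6 to 55.7 CPM (-0.90, SE 0.12, adjusted p = 8.33e-10). NOTUM, whose action on glypicans was not tested, had a mean of 0.0491 CPM in DMSO and 5.71 CPM with mocetinostat.

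The partners of the core proteins inside the membrane moved in both directions. All 12 listed cytoplasmic partners of syndecans were tested, with 6 higher, 2 lower and 4 not passing (median 0.60). TIAM1, a Rac exchange factor that binds syndecan tails, rose from 44.4 to 155.0 CPM (1.82, SE 0.11, adjusted p = 2.09e-24), and SDCBP, the PDZ protein syntenin, went from 125.0 to 190.3 CPM (0.60, adjusted p = 1.97e-07). The kinase SRC fell from 136.7 to 72.0 CPM (-0.91, SE 0.11, adjusted p = 1.89e-11). For the glypicans, 6 genes were listed under GPI anchor attachment, of which PGAP1 acts on the anchor after that step. Of these 6, 3 were lower and 3 did not pass, with a median of -0.22. None of these 6 was called by edgeR, 3 had an unadjusted p under 0.05 and DESeq2 called 1. PIGU, a subunit of the GPI transamidase, had the lowest value (31.1 to 14.6 CPM, -0.99, adjusted p = 6.81e-06), and GPAA1 of the same complex the highest (0.21, adjusted p = 0.192).

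Of 26 listed ligands that bind heparan sulfate 21 were tested, with 15 higher and 4 lower, 8 called upregulated and 2 downregulated (median 0.65). The share called downregulated was near that of all genes, and 3 of those called upregulated (BMP2, FGF18 and SHH) reached the filter level only with mocetinostat. BMP2, a bone morphogenetic protein, held 3, 0 and 3 counts in DMSO and 98, 39 and 53 counts with mocetinostat. WNT5A, a ligand of the noncanonical Wnt pathway, fell from 303.3 to 89.7 CPM (-1.77, SE 0.09, adjusted p = 2.64e-27). All 16 listed receptors were tested, with 10 higher and 3 lower, 6 called upregulated and 1 downregulated, the latter again near the share of all genes (median 0.77, or 0.63 without KDR, which reached the filter level only with mocetinostat). KDR, the main receptor of vascular endothelial growth factor, held 1, 3 and 2 counts in DMSO and 139, 37 and 55 with mocetinostat. SMO, the transducer of hedgehog signals, fell from 37.2 to 15.6 CPM (-1.26, SE 0.18, adjusted p = 6.17e-09).

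Other proteoglycans that carry heparan sulfate, always or at times, numbered 10, of which 9 were tested, with 6 higher and 1 lower (median 0.65, or 0.53 without SPOCK2, which reached the filter level only with mocetinostat). TGFBR3, the transforming growth factor beta co-receptor betaglycan, rose from 4.04 to 45.7 CPM (3.52, SE 0.21, adjusted p = 8.81e-25). NRP1, a co-receptor of semaphorins and vascular endothelial growth factor, fell from 202.5 to 69.7 CPM (-1.56, SE 0.10, adjusted p = 3.65e-22).

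**Figure D4:**
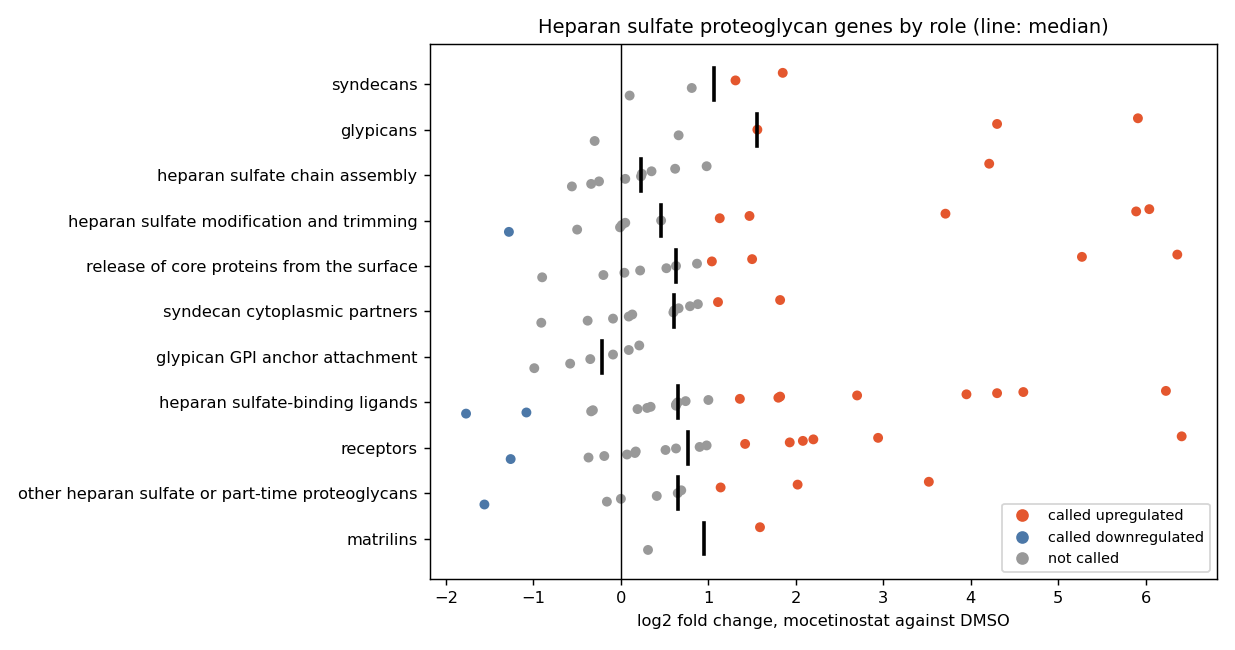
Log2 fold change of every tested gene in each of the lists of genes that work with syndecans and glypicans, 1 point per gene, orange where called upregulated, blue where called downregulated and grey otherwise, with a line at the median of each list. The median is -0.22 for GPI anchor attachment, 1.06 for the syndecans and 1.56 for the glypicans (0.66 without GPC4 and GPC5, which were tested through their mocetinostat samples), and each list but the syndecans and the matrilins holds genes that passed the test in a lower direction.

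For the leading gene of each family, the genes with the nearest profile over the 6 samples were found among 10262 genes, by the distance between log2 levels centred on their means. For SDC4 these were TNFAIP8L1 (distance 0.0719), CD47 (0.0906) and RAB31 (0.130). For GPC1 they were DDA1 (0.0703), DPP3 (0.0854) and WHAMM (0.0900). With only DMSO and mocetinostat compared, a near profile goes with a like fold change. The log2 fold changes were 1.33, 1.28 and 1.32 beside 1.31 for SDC4, and -0.33, -0.30 and -0.30 beside -0.30 for GPC1. Shared regulation was not tested.

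**Figure D5:**
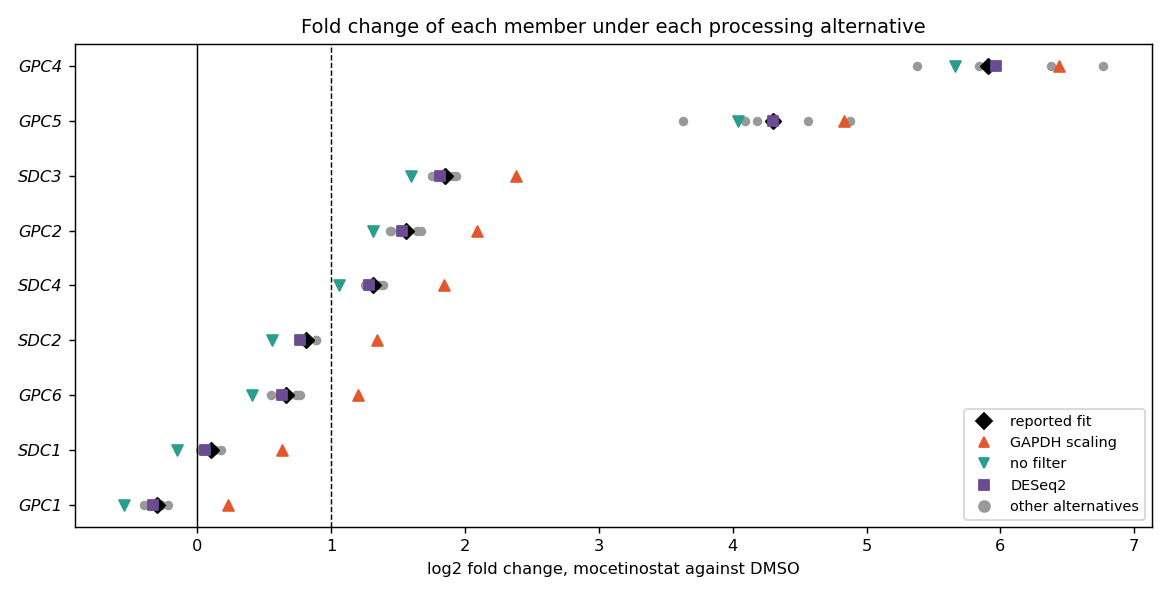
Log2 fold change of each of the 9 genes tested as reported (black diamonds) and under each alternative way of processing the counts, 1 marker per alternative, with a dashed line at the fold threshold of 1. GPC1 lies below 0 except with GAPDH scaling (0.23), SDC1 crosses 0 (-0.15 without a filter), and the others stay above 0.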

How the data were processed

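RNA-Seq libraries were made from 20 ng of total RNA per sample. Per the paper's methods and the submitters' processing notes, the authors removed ribosomal reads, aligned single reads to GRCh38 with STAR 2.6.1d and counted them per gene (Ensembl release 98) with featureCounts 1.6.4; the deposited values are raw counts. Strand and multi-mapping settings are not given in the sources used here. edgeR 4.0.16 (R 4.3.3, limma 3.58.1) computed TMM factors, applied filterByExpr (minimum count 10) and ran its quasi-likelihood test over 13966 genes with treatment as the only term, with Benjamini-Hochberg adjustment. The biological coefficient of variation was 9.30%. The SE is the absolute log2 fold change over the square root of F. CPM were TMM-normalized. Levels per kilobase used the exon length of GENCODE release 44, matched by identifier for 99.5% of the genes. The scripts were tested on simulated data.

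The genes and lists were chosen with earlier results of these data known. Named were all 10 genes, the highest and lowest gene of each list (among those averaging 10 CPM or more in either condition), genes acting in the same complex or reaction as these, genes that reached the filter level in no DMSO sample (added after their values were seen), and the 3 nearest profiles (pseudocount 0.1 CPM). Replicate numbers were checked for pairing: deviations from the group means of same-numbered samples had correlations of 0.008, 0.012 and -0.016, so they were not treated as pairs. Intervals of log2 fold changes are from the fit and include the spread between samples, while the exact intervals of count ratios cover counting error only, since the reads carry no molecular identifiers. Alternatives were DESeq2 1.42.0, RLE factors, library size only, GAPDH scaling, no filter, at least 10 counts in every sample, glmTreat, the replicate block, libraries thinned to 1619344 counts and leaving out each sample. Summaries and figures were made in Python 3.11.15 (pandas 2.3.3; matplotlib 3.10.9).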

Additional observations from a re-analysis of the deposited data

How the results depend on the processing

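Over 131 values of single genes under the alternatives, 126 kept their direction and their call. The 131 leave out called genes that an alternative no longer tested. These were GPC4 and GPC5 under the minimum of 10 counts per sample, and GPC2 and GPC5 with thinned libraries. SDC1 turned to -0.15 without a filter, and GPC1 turned to 0.23 with GAPDH scaling, under which SDC2 (1.34) and GPC6 (1.20) passed the fold threshold and SDC1 (0.63, adjusted p = 2.19e-06) passed the test. GPC2 lost its call under glmTreat (adjusted p = 0.101). Of the 10 genes, 3 were called upregulated when a minimum of 10 counts was set for each sample and 3 when libraries were thinned, both with 7 genes tested, and 7 with GAPDH scaling. The number was 6 without a filter and 6 with DESeq2, both with 10 genes tested and with GPC3 among those called (DESeq2 log2 fold change 4.87, adjusted p = 0.0106). The number was 5 with each replicate left out in turn and 5 with the replicate number as a block, which changed no call of the 9 genes. The log2 ratio of the summed syndecans was 1.62 with GAPDH scaling and 1.14 with thinned libraries, and that of the summed glypicans was 0.62 with GAPDH scaling. The share of GPC1 differed by -20.5 points when counts were not divided by exon length. GAPDH scaling moved the median of all genes by 0.54 and the absence of a filter by -0.25. Over all 13966 genes tested, 2827 were called upregulated and 1142 downregulated. With GAPDH scaling these were 4425 and 284 of 13966, so that upregulated calls rose over all genes as well as among the 10. Under the minimum of 10 counts per sample they were 1620 and 704 of 10876. With thinned libraries 2100 of 11729 were called upregulated, without a filter 3201 of 40504 and with DESeq2 3419 of 40504. Called downregulated were 2120 without a filter and 465 by glmTreat. Depth limits GPC3, GPC4 and GPC5, which held at most 6 counts in any DMSO sample, and GPC2, which held 14 to 42 counts.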
